A study of Mus musculus with 30 samples.

Results

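The major urinary protein (Mup) region was taken as 3 Mb of chromosome 4, from 59500001 to 62500000 in the mouse build GRCm39, an interval chosen for the integration density already seen there. It held 3731 of the 2181704 nuclear integration site records of 30 mouse livers, of which 2516 came from 17 piggyBac (PB) livers and 1215 from 13 Sleeping Beauty (SB) livers. A record is 1 position on 1 strand in 1 liver. The 3 Mb on each side, starting at 56500001 and ending at 65500000, served as flanks and held 5496 records, 2958 of them PB and 2538 SB.

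All livers came from mice with a knockout of Fah, in which tyrosinemia type I (TT1) is modelled, and the animals had received a therapeutic gene on a PB or an SB transposon. No liver without a transposon was included, and strain, sex, age, vector dose and time of collection were not given in the sources used here. Whole livers were lysed, so a site cannot be assigned to a cell type. DNA fragments of 400 to 1500 bp carrying a transposon end were amplified in nested PCRs of 16 cycles each and sequenced (streptavidin-based enrichment sequencing, SBE-seq), and each site is listed with a whole number, called support here, of at least 3.

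Mup genes encode small secreted lipocalins that the mouse liver makes in large amounts and that pass into urine, where they carry pheromones and act as scent signals. They lie in a cluster of recent duplicates in which functional copies and pseudogenes alternate. PB inserts at the tetranucleotide TTAA and SB at the dinucleotide TA. Fah encodes the last enzyme of tyrosine breakdown, and hepatocytes in which it is restored can outgrow the others in such mice. Short reads from near-identical copies often have no unique place in a genome.

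In the RefSeq gene table of GRCm38.p6, 22 numbered Mup genes and 22 entries named Mup-ps, 19 of them listed as pseudogenes, 2 as protein coding and 1 as a long noncoding RNA, stood between Slc46a2 before Mup4 and Zfp37 after Mup21, with 2 other genes, Gm21286 and Gm12909, among them. That is not the build of the sites, so no gene was placed on the site positions, and whether each Mup gene lies within the interval in GRCm39 was not checked. Promoter windows of 300 bases, from 250 before to 50 after the start, were available for 14 of the numbered genes. The longest unbroken run that each shared with any other of these promoters was 42 to 275 bases (median 119.5). It was at least 100 bases in 8 of the 14. The pair with the longest shared run was Mup15 (GRCm38.p6, chr4:61439655-61439954, minus strand) and Mup19 (chr4:61782175-61782474, minus strand). Mup3 (chr4:62087268-62087567, minus strand) and Mup21 (chr4:62150792-62151091, minus strand) had the shortest best match, 42 bases with each other. Neither of these shared a longer run with any other of the 14. Capitals mark runs of at least 50 bases found in another Mup promoter, and sequences run 5′ to 3′ on the gene's strand.
Mup15: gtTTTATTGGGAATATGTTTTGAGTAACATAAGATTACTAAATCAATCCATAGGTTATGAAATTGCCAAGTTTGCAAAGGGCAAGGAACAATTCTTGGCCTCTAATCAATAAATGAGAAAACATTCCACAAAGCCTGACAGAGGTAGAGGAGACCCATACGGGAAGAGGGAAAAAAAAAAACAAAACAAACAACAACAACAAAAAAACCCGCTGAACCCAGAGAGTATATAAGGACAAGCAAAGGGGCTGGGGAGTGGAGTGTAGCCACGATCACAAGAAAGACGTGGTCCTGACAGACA
Mup19: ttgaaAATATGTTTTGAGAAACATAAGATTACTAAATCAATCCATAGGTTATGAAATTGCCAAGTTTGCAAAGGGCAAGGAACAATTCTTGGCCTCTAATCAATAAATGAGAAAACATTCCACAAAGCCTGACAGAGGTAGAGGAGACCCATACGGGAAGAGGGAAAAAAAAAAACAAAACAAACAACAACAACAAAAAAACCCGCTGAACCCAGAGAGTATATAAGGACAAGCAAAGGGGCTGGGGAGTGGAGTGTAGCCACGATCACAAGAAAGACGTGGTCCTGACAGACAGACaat
Mup3: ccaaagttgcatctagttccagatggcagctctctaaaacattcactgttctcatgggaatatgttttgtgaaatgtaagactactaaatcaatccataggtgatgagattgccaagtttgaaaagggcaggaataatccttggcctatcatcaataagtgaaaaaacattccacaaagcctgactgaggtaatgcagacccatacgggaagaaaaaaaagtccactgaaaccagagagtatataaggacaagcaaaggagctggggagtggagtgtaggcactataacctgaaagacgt
Mup21: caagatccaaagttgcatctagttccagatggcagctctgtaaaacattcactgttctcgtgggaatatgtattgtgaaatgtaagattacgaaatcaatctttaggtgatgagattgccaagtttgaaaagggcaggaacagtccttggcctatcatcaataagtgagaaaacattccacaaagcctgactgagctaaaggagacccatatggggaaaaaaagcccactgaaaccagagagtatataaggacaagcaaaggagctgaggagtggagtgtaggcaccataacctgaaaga
The motif TTAA, which reads the same on both strands, was in 0 of the 14 Mup promoters, against 52.4% of the 32851 promoter windows of the table. TA was in all 14, against 99.1% of all promoter windows. It had 13 to 18 matches in each of the 14 (median 15.5, against 10 over all promoters), and overlaps TTAA where that occurs. Of 24 promoter windows of 3 Mup-ps entries, 23 held TTAA. These letters describe the windows and name no site used in these livers.

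Total nuclear sites ran from 16364 to 124238 in PB livers and from 4893 to 120219 in SB livers, so levels are given as sites per 10000 nuclear sites of the liver. SB liver 13, with 4893 sites, had 5 in the region and 6 in the flanks, and 1 site there weighed 2.04 per 10000. Where this liver moved an SB value of the region by over 1.5 times, or set the highest value of a range, the value without it is given too. Liver numbers separate livers of a group, and where the labels do not say that they are separate experiments, p-values measure the spread between these livers only. The 95% intervals for single livers are exact (Clopper-Pearson) and cover the counting error of site records only. Copies of 1 molecule made by PCR were not told apart.

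PB livers carried a larger share of their sites in the Mup region than SB livers did. The share was lowest in PB liver 14 at 16.7 per 10000 (interval 12.3 to 22.2), had a median of 20.2 and was highest in PB liver 13 at 26.9 (interval 20.7 to 34.5). In SB livers the lowest was 6.63 in liver 2 (interval 4.44 to 9.52), the median 12.8 and the highest 16.0 in liver 11 (interval 13.8 to 18.4). Every one of the 17 PB livers lay above every SB liver. The means were 20.6 ± 2.64 per 10000 in PB livers and 12.3 ± 2.21 in SB livers (SD, n = 17 and 13). This contrast chose the interval, so it is a description with no test.

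**Figure D1:**
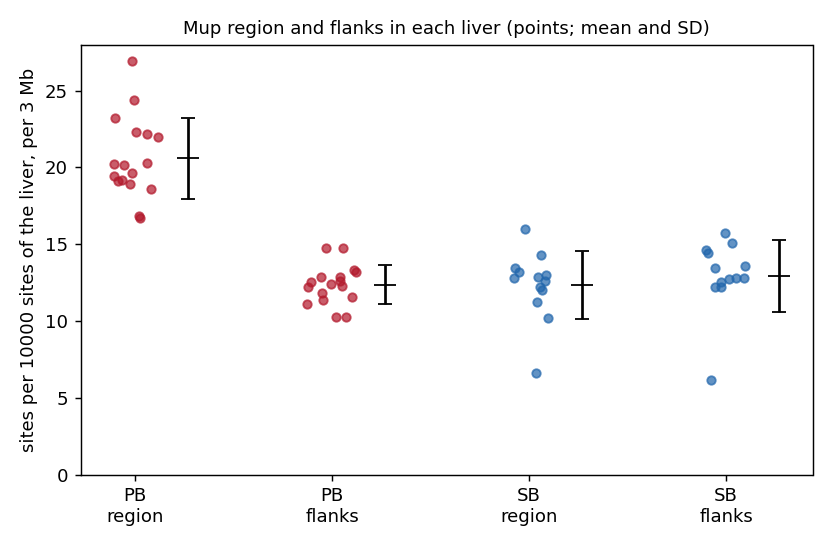
Sites per 10000 nuclear sites of each liver, per 3 Mb, in the Mup region and its flanks for 17 PB and 13 SB livers (points), with mean and SD. PB region values lie between 16.7 and 26.9, above all SB region values, while the flanks of PB and SB livers overlap.

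The flanks did not separate the systems in this way. They averaged 12.4 ± 1.28 sites per 10000 per 3 Mb in PB livers and 12.95 ± 2.34 in SB livers (SD). The density of the region over that of its flanks was 1.13 at the lowest, 1.66 at the median and 2.15 at the highest in PB livers, and 0.518, 0.966 and 1.67 in SB livers. All 17 PB livers were above 1, whereas 5 SB livers were above 1 and 8 below, and the ranges overlap. The highest SB value came from liver 13, and the highest of the other 12 was 1.31. As a log2 density over the flanks, the PB mean of 0.73 was 0.16 with flanks of 1 Mb, and it turned to -0.29 when the region was narrowed to 60 to 62 Mb. In that setting the flanks were the 3 Mb on each side of the narrowed borders, so they held the dense ends of the region. The narrowed region was not set against the original flanks. The flanks themselves were uneven in both systems, with 17.3 ± 1.66 PB and 16.1 ± 2.57 SB sites per 10000 below the region, and 7.48 ± 1.71 PB and 9.81 ± 3.21 SB sites above it (SD).

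Within the region both systems were dense at the ends and sparse in the middle. In consecutive steps of 500 kb from the lower border on, PB livers averaged 5.33, 1.69, 1.04, 1.05, 5.30 and 6.19 sites per 10000. SB livers averaged 3.99, 1.08, 0.555, 0.730, 2.38 and 3.61 over the same steps. The middle thus fell well under the ends in both, and PB had the higher mean in every step.

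Set against the mean 500 kb of its own flanks, the step from 60.5 to 61 Mb reached 0.505 ± 0.130 of that level in PB livers and 0.249 ± 0.127 in SB livers (SD), and was below it in 17 of 17 PB and 13 of 13 SB livers. The next step, 61 to 61.5 Mb, was at 0.512 ± 0.204 in PB livers and 0.409 ± 0.498 in SB livers, or 0.277 ± 0.147 without SB liver 13, and was below the flanks in 17 of 17 PB and 12 of 13 SB livers. The ends were the reverse in PB livers: the first step and those at 61.5 and 62 Mb stood at 2.58, 2.61 and 3.02 times the flank level, each above it in all 17. In SB livers the same steps stood at 1.94, 1.06 and 1.78 times that level, above it in 12, 7 and 12 of 13 livers, and at 1.77, 1.15 and 1.599 times without SB liver 13.

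**Figure D2:**
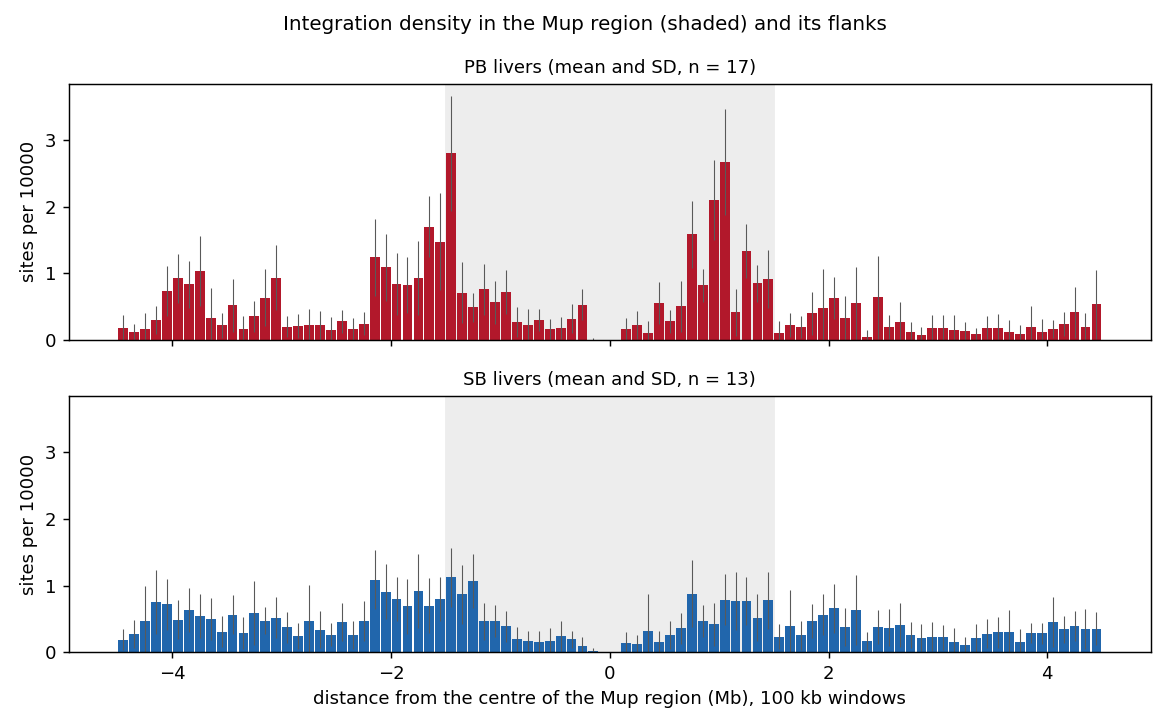
Mean sites per 10000 with SD in 100 kb windows across the Mup region (shaded) and its flanks, by distance from the centre of the region, for 17 PB livers (top) and 13 SB livers (bottom). PB peaks at both ends of the region, with 2.80 and 2.67 per 10000 in its densest windows, and both systems are near 0 just around the centre.

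PB sites were packed into few windows. The densest 100 kb window in PB livers, the first of the region (59500001 to 59600000), held 327 PB sites at 1.85, 2.44 and 5.13 per 10000 (lowest, median, highest), against 103 SB sites at 0.457, 1.15 and 2.04. It was also the densest for SB, and 14 of 17 PB livers were above every SB liver. The SB value of 2.04 is a single site of liver 13. Without that liver the highest SB value was 1.49, and 17 of 17 PB livers were above it. The next, 62 to 62.1 Mb, had 337 PB sites at 2.67 ± 0.80 per 10000 and 87 SB sites at 0.787 ± 0.379 (SD), with 16 of 17 PB livers above every SB liver. The window before it, 61.9 to 62 Mb, had 277 PB sites at 2.10 ± 0.60 and 40 SB sites at 0.418 ± 0.325 (SD), again with 16 of 17 above.

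SB density followed a flatter profile. Its other dense windows were 59.7 to 59.8 Mb, with 65 PB sites at 0.492 ± 0.220 per 10000 and 92 SB sites at 1.07 ± 0.40, and 61.7 to 61.8 Mb, with 190 PB sites at 1.58 ± 0.51 and 94 SB sites at 0.879 ± 0.506 (SD). At 59.7 Mb no PB liver was above every SB liver. The 3 windows of 30 with most sites of a system took 37.4% of PB and 24.0% of SB region sites. Over 10 kb steps, the 10 of 300 with most sites took 29.4% of PB and 12.3% of SB sites.

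Fine steps sharpened the PB peaks near 62 Mb. The densest 10 kb for PB, 62 to 62.01 Mb, held 128 PB sites at 0.284, 1.00 and 1.83 per 10000 (lowest, median, highest), against 5 SB sites with a median of 0 and a highest of 0.166. All 17 PB livers were above every SB liver there. The other 4 were at 59.55, 61.94, 62.01 and 61.97 Mb, with 79, 78, 86 and 85 PB sites and 6, 4, 12 and 2 SB sites. In SB livers no fine step stood out this way. Ranked without SB liver 13, the 5 densest began at 62.03, 59.52, 61.73, 59.73 and 61.75 Mb and held 9, 14, 11, 4 and 13 PB sites and 18, 18, 15, 13 and 16 SB sites. With it, single sites of that liver put the steps at 59.72, 62.42 and 62.11 Mb among the top 5.

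The borders of the interval did not fall at equal changes of density. The window just outside the lower border had 1.47 PB and 0.799 SB sites per 10000 on average, and the window just inside it had 2.80 PB and 1.12 SB sites. At the upper border, the window inside had 0.918 PB and 0.777 SB sites, and the window outside had 0.103 PB and 0.235 SB sites.

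**Figure D3:**
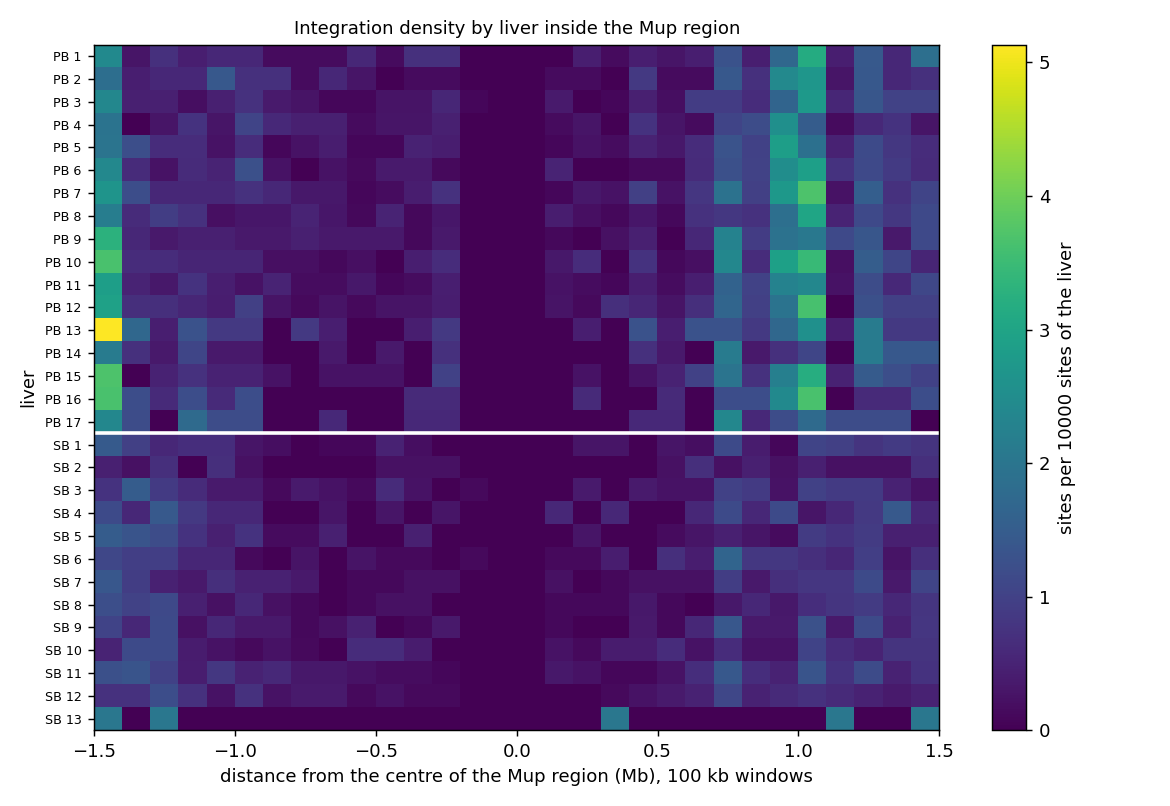
Sites per 10000 in 100 kb windows (columns, by distance from the centre of the Mup region) in each liver (lines of the map), with PB livers above SB livers. The dense windows at both ends of the region appear in PB livers one by one, and the empty middle appears in livers of both systems.

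A limma-voom fit over all 100 kb windows of the autosomes and X, on site counts with total sites as library size, gave the difference per window. It tested 27 of the 30 windows of the region. In 8 of them PB was higher (background 10.3% of 20884 windows) and in 3 SB was higher (background 14.5%) at an adjusted p under 0.05. The interval was chosen on this contrast, so nothing is read from the counts. The largest differences, as log2 of PB over SB, were 2.37 ± 0.25 at 61.9 Mb, 1.84 ± 0.38 at 60.7 Mb and 1.52 ± 0.20 at 62 Mb, and the smallest were -0.86 ± 0.28 at 62.1 Mb, -0.83 ± 0.24 at 59.7 Mb and -0.69 ± 0.26 at 59.6 Mb (SE, n = 17 and 13). Windows of opposite sign lay side by side at both ends. The median was 0.34 in the region and -0.33 over all windows. Differences centred on the median over all windows gave 13 of the 27 region windows with PB higher and 0 with SB higher. Over all 20884 windows, this centring gave 3583 with PB higher and 791 with SB higher. Nothing is read from these counts either.

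A stretch in the middle held no site of either system. It ran from 60802954 to 61105909, or 302956 bp. On the autosomes, 15 gaps between neighbouring sites were at least that long, this one included. The 3 windows left out of the fit lie here: the one at 60.8 Mb had 1 PB and 2 SB sites, and those at 60.9 and 61 Mb had 0 of either.

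The next longest stretches were 43200 bp from 61215822 to 61259021, 25812 bp from 61145779 to 61171590, 22614 bp from 60505638 to 60528251 and 20587 bp from 60755144 to 60775730. All lie between 60.5 and 61.5 Mb. The longest in the flanks were shorter than each of these, at 17234 bp below the region and 15890 bp above it.

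Empty 10 kb steps were counted over the pooled livers. Neither system had a site in 40 of 300 steps of the region (13.3%), against 9 of 600 in the flanks (1.5%) and 4.03% over the autosomes. PB had none in 56 region steps (18.7%), 14.5% of flank steps and 16.9% of autosomal steps. SB had none in 68 region steps (22.7%), 6.17% of flank steps and 10.5% of autosomal steps. Of the 40 steps empty of both, 22 lay from 60.5 to 61 Mb and 16 from 61 to 61.5 Mb, with 1 each in the steps at 60 and 61.5 Mb. Whether reads from near-identical copies were dropped in mapping was not tested, and sites with support under 3 are not seen here, so an empty step is not shown to lack insertions.

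PB livers hit the same positions again and again. The 2516 PB records fell on 1618 positions, of which 391 (24.2%) were hit in at least 2 livers, 57 in at least 5 and 14 in at least 8, with 13 the most. Of PB positions in the flanks 16.7% were hit in at least 2 livers, and over the genome 16.9%. With 5 livers or more, the PB share was 3.52% in the region, 1.93% in the flanks and 2.04% over the genome. Reuse by 8 livers or more was seen at 14 of 1618 PB positions, 13 of 2173 and 4367 of 908720, in the same order. The most reused PB position was found in 12 livers in the flanks and in 17 over the genome, so 13 livers was not particular to the region. The 1215 SB records fell on 1178 positions, of which 32 (2.72%) were hit in at least 2 livers and none in more than 3, against 1.73% in the flanks and 1.91% over the genome.

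**Figure D4:**
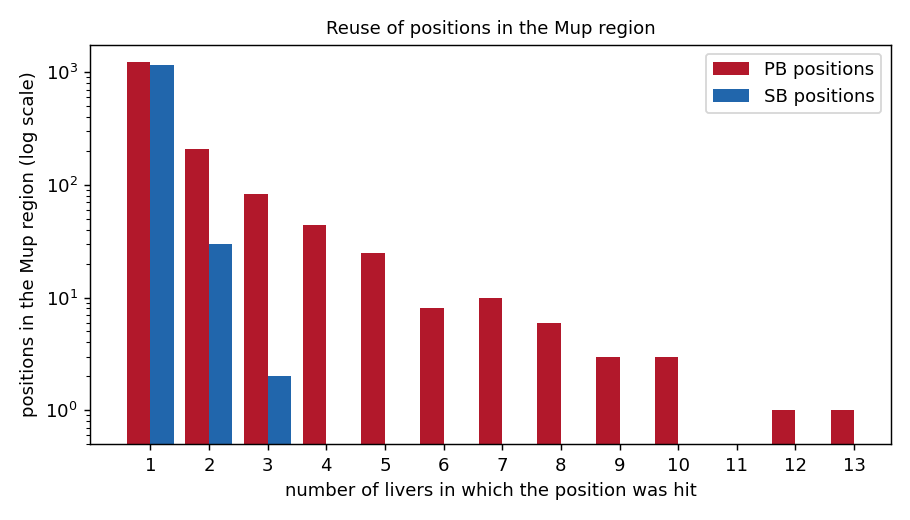
Number of positions in the Mup region (log axis) by the number of livers in which each was hit, for PB and SB. PB positions extend to 13 livers, SB positions to 3.

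By liver, the share of region sites whose position and strand were also hit in another liver of the system was lowest at 33.0%, had a median of 41.9% and was highest at 50.0% in PB livers. In the flanks of the same livers these were 21.7%, 27.8% and 40.0%, and the region was higher in 17 of 17. SB livers averaged 2.62% ± 1.74 in the region and 2.66% ± 4.29 in the flanks (SD, n = 13), and 2.84% ± 1.62 in the region and 1.49% ± 0.87 in the flanks without liver 13 (SD, n = 12). That liver had 0% in the region and 16.7% in the flanks. A coincidence counts in both livers and becomes likelier with density, so these shares carry no test. The effective number of targets, meaning how many stranded positions, all used alike, would yield as many coincidences, was 814 per Mb in the region and 719 per Mb in the flanks for PB. For SB it was 13103 per Mb in the region and 25736 per Mb in the flanks, from 17 and 19 coincidences.

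Within the region, the densest PB windows were also those of most PB reuse, which becomes likelier with density. It was not particular to the region: the flank window at 59.3 Mb, with 196 PB sites, had 38.6% of its PB positions in at least 2 livers. In the first window of the region and those at 62 and 61.9 Mb, 37.8%, 39.0% and 32.9% of PB positions were hit in at least 2 livers, and 53.7% in the 10 kb step at 62 Mb. At 59.7 Mb, where SB was denser, 8.93% of PB positions and 7.06% of SB positions were.

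The PB position hit in most livers, chromosome 4 from 61894325 to 61894328, was found in 13 of 17 livers with 18 records, 8 on the plus and 10 on the minus strand. Livers 2, 7, 8, 11 and 12 had it on both strands, and its support ran from 19 to 146. Livers 14 to 17, among those with fewest sites, lacked it. The positions 62006925 to 62006928, 61934031 to 61934034 and 59550453 to 59550456 were each found in 10 livers, with 13, 11 and 11 records, on both strands, and with median support of 44, 61 and 54.

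The second most reused position differed from these in strand and support. It ran from 59961351 to 59961354 and was found in 12 livers, with all 12 records on the minus strand. Its support was 3 to 64 with a median of 9.5. Of the 57 PB positions in at least 5 livers, 7 were hit on 1 strand only. Among them, 62006926 to 62006929, in 5 livers with a median support of 4, lies 1 bp from the reused position at 62006925, and all 5 livers held that position too. Of all PB positions in the region, 2.90% had another PB position 1 to 3 bp away, against 2.76% in the flanks and 3.67% over the genome.

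SB reuse was thin. The positions 59739559 to 59739560 (livers 1, 7 and 9) and 61662191 to 61662192 (livers 7, 11 and 12) were each found in 3 livers, with support of 16 to 74 and 10 to 36. A further 30 positions were found in 2 livers, and the one with the highest summed support, 59545296 to 59545297, had 138 in liver 2 and 144 in liver 12, both on the plus strand. Both strands of 1 position were hit within 1 liver 77 times in PB and 3 times in SB. For PB that was 3.16% of the pairs of position and liver, against 2.99% in the flanks and 2.50% over the genome. For SB it was 0.248%, against 0.0789% and 0.105%.

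Few positions were used by both systems, in the region as over the genome. An SB dinucleotide lay at the centre of a PB tetranucleotide at 3 positions of the region (0.185% of PB and 0.255% of SB positions), 9 of the flanks (0.414% and 0.361%) and 2111 of the genome (0.232% and 0.227%). The 3 PB positions start at 61762380, 61946634 and 62307482, and each had 1 PB and 1 SB liver.

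Strand, support and the later PB livers were not used to choose the region and were tested, with 7 tests adjusted together by Benjamini-Hochberg. None had an adjusted p under 0.05. Sites on the minus strand made up 34.9% to 69.4% of region sites in PB livers (median 51.8%) and 34.5% to 60% in SB livers (median 53.1%, highest 58% without liver 13). Region minus flanks, this share differed by 0.27 ± 9.22 percentage points in PB livers (SD, n = 17, higher in 10, permutation adjusted p = 0.91) and by 4.82 ± 17.9 in SB livers (SD, n = 13, higher in 7, permutation adjusted p = 0.64). SB liver 13 stood alone at 60 points, from 5 region sites and 6 flank sites. Without it the SB difference was 0.22 ± 7.16 points (SD, n = 12, unadjusted permutation p = 0.92). The differences of PB and SB livers differed by -4.55 points (permutation adjusted p = 0.64), or by 0.051 points without SB liver 13. Single windows leaned more, such as the one at 59.9 Mb with 74.2% of 62 PB sites on the minus strand, 12 of them at the position starting at 59961351. In SB livers 65.3% of the 49 sites of this window were on the minus strand. The window was picked after its PB value was seen and has no test.

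The support of a site, taken as its reads since no source used here defines it, had a median of 18 to 124.5 in the region in PB livers and 34 to 115 in SB livers (34 to 79 without liver 13). Region minus flanks on the log2 scale, the median support differed by -0.03 ± 0.12 in PB livers (SD, n = 17, higher in 5 and lower in 10, permutation adjusted p = 0.64) and by 0.03 ± 0.20 in SB livers (SD, n = 13, permutation adjusted p = 0.65). PB and SB livers differed in this by -0.06 (permutation adjusted p = 0.64). Without SB liver 13 these values were 0.0021 in SB livers and -0.03 between the systems (unadjusted permutation p = 0.97 and 0.59). The livers of both systems spread around 0 and overlapped.

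**Figure D5:**
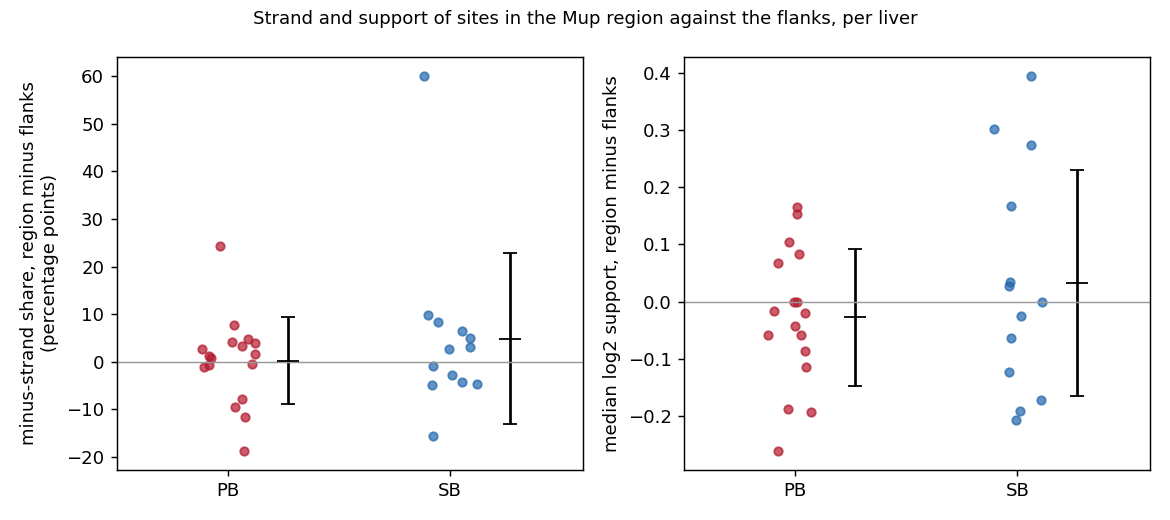
Region minus flanks per liver (points, with mean and SD) for the share of sites on the minus strand in percentage points and for the median log2 support, in 17 PB and 13 SB livers. Both measures scatter around 0, and SB liver 13 stands at 60 points in the strand plot.

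PB livers 13 to 17 carried fewer sites than PB livers 1 to 12, 16364 to 40598 against 66528 to 124238, and the labels do not say how they otherwise differ. Their region shares were 26.9, 16.7, 22.2, 22 and 20.2 per 10000, against 16.8, 19.5 and 24.4 (lowest, median, highest) in livers 1 to 12. The ranges overlap, and the mean log2 share differed by 0.09 (exact permutation test, two-sided, adjusted p = 0.64). In the limma-voom fit over all windows, 26 region windows were tested and 0 passed in either direction (background 0.114% higher and 0% lower of 17538 windows). The fit as a whole leaned upward in livers 13 to 17. Its median log2 difference was 0.37 over all windows and 0.29 in the region, with 74.7% and 80.8% of windows above 0. The lowest adjusted p in the region was 0.11 (limma), and 3 of the 26 had an unadjusted p under 0.05, against 13.2% of all windows. A quasi-Poisson model, added after the data were seen, also called 0 of 25 region windows, against 5 of 16738 windows in all. Its median log2 difference was -0.03 over all windows and 0.04 in the region. In the region 1 window had an unadjusted p under 0.05, and the share over all windows was not counted for this model. On simulated data the limma-voom fit of these groups missed most small changes and made false calls, so the absence of calls does not show that the windows were alike.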

How the data were processed

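Integration sites were mapped by SBE-seq in whole-liver DNA of 17 PB and 13 SB livers, grouped by the group label. Per the submitters' processing notes, cutadapt and BWA were used with GRCm39. Their versions are not given there. The deposited tables of the authors give chromosome, position, strand and a whole number per site, with no normalization given in the sources used here. The smallest number was 3. The 30 mitochondrial sites were left out. Tables merging livers were not used.

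Sites were counted per liver in steps of 500, 100 and 10 kb and divided by nuclear sites. For 100 kb windows averaging 1 or more sites a liver, limma 3.58.1 in R 4.3.3 was run (voom, Benjamini-Hochberg). Other tests were two-sided permutation tests over livers with 100000 resamples (sign flips within a system), exact for PB livers 13 to 17 against 1 to 12, in Python 3.11.15 with numpy 2.4.6, pandas 2.3.3 and scipy 1.17.1. Figures used matplotlib 3.10.9. The window fit was tested on simulated data. It missed most small changes both for PB against SB and for PB livers 13 to 17 against 1 to 12. False calls were made in both, more of them in the latter. Reuse and empty steps were counted without a test.

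The region, members and lists were chosen with earlier results of these data known. Named were the 5 PB and 3 SB positions in most livers (ties by records, then summed support), the 3 densest 100 kb and 5 densest 10 kb steps of each system, the 3 largest and 3 smallest window differences, the 5 longest empty stretches and the longest in each flank. Promoters came from RefSeq GRCm38.p6. Since no GRCm39 genome was used here, TTAA and TA per window and gene positions were not analysed. PB and SB livers of 1 number showed no paired deviations (0 of 13 correlations above 0.1, from -0.010 to 0.013), so numbers were not taken as pairs.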

Additional observations from a re-analysis of the deposited data

How the results depend on the processing

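Of 152 values over 24 results and their alternatives, 122 kept their side of the threshold and their direction (for values with no test, moved by less than 1 SD between livers, and for counts, by less than 1.5 times), though some of these changed in size. Of the others, 19 moved further and 11 changed sign. The cause was not tested unless the alternative itself sets it. Without positions hit in more than 1 liver, the PB share fell to 16.4 per 10000, the log2 difference PB minus SB of the shares to 0.44 (0.75 otherwise), and the log2 density of the region over its flanks in PB livers to 0.42 (0.73 otherwise). That density was 0.16 with flanks of 1 Mb. Narrowed to 60 to 62 Mb, which leaves out most dense windows, the share was 9.07 in PB and 4.74 in SB livers, and their log2 difference 1.00. All values at 60 to 62 Mb against flanks used the 3 Mb on each side of the narrowed borders. Dense windows at the ends of the region thus moved into these flanks. Against them the log2 density was -0.29 in PB and -1.09 in SB livers, so the PB sign turned. It was not computed against the original flanks.

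Strand and support differences, none of which had an adjusted p under 0.05 as reported, changed sign under several settings, for which no p was adjusted. The strand difference in PB livers was -1.09 points at a support of at least 10 and -0.83 without positions in more than 1 liver, and in SB livers -4.21 at 60 to 62 Mb. PB minus SB it was 0.55 in livers 1 to 12, 0.051 without SB liver 13, 0.754 against all other nuclear sites and 5.39 at 60 to 62 Mb. The log2 support difference in SB livers was -0.0022 with flanks of 1 Mb and -0.13 at 60 to 62 Mb (unadjusted permutation p = 0.045), and PB minus SB it was 0.049 at 60 to 62 Mb.

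Of all 20884 windows tested, PB was higher in 2157 and SB in 3021. A mean of at least 3 sites per liver left 8601 windows to test, with 2231 higher in PB and 700 in SB. Centring on the median window gave 3583 and 791 of 20884, with 13 and 0 in the region. The replicate block, taking equal liver numbers as pairs, gave 5102 of 22075 windows higher in SB and left the region at 8 and 3. With it the log2 share difference was 0.76, the density difference 0.84, the strand difference -5.55 and the support difference -0.06. The share and density differences were not tested, so only the strand and support differences had a call, and neither call changed.

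For PB livers 13 to 17 against 1 to 12, 20 windows in all were higher, 0 with the stricter filter, 5 by the added quasi-Poisson model and 7 to 101 leaving out 1 of the 5 livers (101 without liver 15, 31 without 13, 7 without 16), and 0 in the region each time. The share difference ran from 0.0038 to 0.18. TTAA and TA per window were not run for want of a genome of the sites' build. Few sites limit the middle of the region and SB liver 13.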
